A study of Mus musculus with 16 samples.

Results

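Cdkn1a encodes p21, an inhibitor of cyclin-dependent kinases, and its messenger RNA was followed here through the immune cells of 2 mouse tumors, with and without radiation. It is 1 of 31053 features in the deposited matrices and was chosen by name, with earlier results of these data known. It was read as unique molecular identifiers (UMIs) of Cdkn1a per 1000000 UMIs that the same library held within each marker-gated class of cells (CPM). After DNA damage the transcription factor p53 is stabilized and switches on Cdkn1a, and the p21 protein holds cyclin and kinase complexes inactive and binds the replication clamp PCNA, so that the cell stops before or during DNA synthesis. p53 also switches on its own inhibitors Mdm2, Ccng1 and Ppm1d, and the death genes Bax, Bbc3 and Fas, and lymphocytes are known to die readily after irradiation while macrophages are known to resist it. Cdkn1a is also used without DNA damage, in the maturation of monocytes and macrophages and in activated lymphocytes.

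The series compared tumors of MC38, a colorectal carcinoma line, with tumors of Panc02-SIY, a pancreatic adenocarcinoma line that carries the model antigen SIY, both grown under the skin of C57BL/6J mice. Each line was left untreated or given a single dose of 12 Gy aimed at the tumor by computed tomography, and 24 h later live CD45+ cells, all white blood cells of the tumor, were enriched with magnetic beads, sorted and read by droplet sequencing of the 3′ ends of their RNA. The study's interest was in how immune cells of MC38, whose response to radiation involves the immune system, and of Panc02-SIY, whose response involves it little, react to the same dose. The groups are untreated MC38, irradiated MC38, untreated Panc02-SIY and irradiated Panc02-SIY, with 4 libraries each and 16 in all, all from mice with no genetic change named in the labels, which give no age. The labels and the study's methods differ on whether 4 or 3 animals stand behind a group, and neither ties a library to an animal, so every p-value here measures the spread between libraries, which may in part be technical.

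In the gene models of the counting annotation's release (GENCODE, build GRCm38/mm10), Cdkn1a (ENSMUSG00000023067) lies on the plus strand of chromosome 17, at chr17:29090976-29100727, with 5 transcripts. Its coding sequence is split over exon 2 at chr17:29098397-29098837 and exon 3 at chr17:29099344-29100722 of transcript Cdkn1a-201, the latter holding the end that the 3′ reads come from. The gene has 2 annotated RefSeq start sites, at position 29090979 and 2790 bases further at 29093769, and reads from the 3′ end cannot tell which of them was used. The 250 bases before each start site, taken from RefSeq (GRCm38.p6, plus strand), are shown because the p53 pathway is the one the results are read against. The upper window is chr17:29090729-29090978 and the lower is chr17:29093519-29093768.
distal start: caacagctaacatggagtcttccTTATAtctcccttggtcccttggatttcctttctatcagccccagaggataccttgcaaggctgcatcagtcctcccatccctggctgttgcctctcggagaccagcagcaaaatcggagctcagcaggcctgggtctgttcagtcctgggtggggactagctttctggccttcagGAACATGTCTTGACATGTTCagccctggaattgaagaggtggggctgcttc
proximal start: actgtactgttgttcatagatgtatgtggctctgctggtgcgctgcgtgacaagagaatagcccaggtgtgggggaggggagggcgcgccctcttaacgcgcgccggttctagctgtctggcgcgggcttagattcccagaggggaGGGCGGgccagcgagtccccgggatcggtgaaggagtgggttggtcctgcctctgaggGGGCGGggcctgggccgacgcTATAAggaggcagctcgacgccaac
Capitals mark matches to 3 searched motifs, on both strands. The distal window holds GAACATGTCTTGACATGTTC at chr17:29090928-29090947, which starts 51 bases before the start site. It has 1 mismatch in 20 to the p53 response element, searched as a pair of adjoining decamers whose core C and G are kept. With at most that 1 mismatch the element was found in 19 of 32851 windows of the same length before mouse start sites (0.0578%). The distal window also holds TATAA on the minus strand, printed as TTATA, 227 bases before the start. The proximal window holds GGGCGG, the letters of a GC box, 104 and 46 bases before the start and TATAA 25 bases before it, and 32.7% and 22.8% of all windows hold these. Among the p53 pathway lists used further on, the element was found before Ccng1 among 11 feedback genes that have a window, before Rps27l among 9 repair genes and before none of 7 death genes. A match in these windows is a description of letters, and no match says nothing about binding elsewhere.

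The libraries held 28678 cell barcodes and 187735117 UMIs, 74160 of them Cdkn1a, and totals per library ran from 3240877 to 43776342 UMIs. MC38 libraries shared barcodes. A pair of MC38 libraries had a median of 83.3% of the smaller one's barcodes in common and 769 barcodes stood in all 8, while pairs of Panc02-SIY libraries had 5.54% in common. Of the distinct barcodes, 1190 of 2632 in MC38 and 156 of 18136 in Panc02-SIY stood in both untreated and irradiated libraries. Each barcode was therefore kept only in the library of its tumor line where it had the most UMIs, which left 20768 barcodes, 2632 of 9843 in MC38 and 18136 of 18835 in Panc02-SIY, and the MC38 values that results turn on are given also with all barcodes. Barcodes were gated into 14 classes by 10 marker genes each, and 10.9% met no gate. Markers of the class were among the 10 leading genes of every class, such as C1qa and Apoe in macrophage-gated and Xcr1, Naaa and Tlr3 in cDC1-gated barcodes. The gates use these markers, so that does not test the names. In MC38 alone, 2 of the 10 leading genes of monocytes were markers of other classes. The share of gated barcodes in a cluster of the same name was 67.3% in monocytes, 70% in migratory dendritic cells and 8.85% in cDC1. It was 0% in plasmacytoid dendritic cells and 81.3% to 97.4% in the other classes. Of the kept barcodes, 0.650% carried fibroblast, epithelial or endothelial markers ahead of immune ones. A class name below means the barcodes of that gate, a library counts for a class where it has at least 10 such barcodes, and 1500 of the 2632 kept MC38 barcodes were macrophages.

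Without radiation, among classes with 4 counted libraries in a group, Cdkn1a was highest in monocyte-gated barcodes, the Ly6c2 and Ccr2 cells that enter tumors from blood. Its level in the monocytes of the 4 untreated MC38 libraries was 659, 822, 834 and 594 CPM (727 ± 119, SD), and in those of Panc02-SIY it was 298, 702, 492 and 424 (479 ± 169), a range that also held the only 2 counted libraries of migratory dendritic cells of that tumor, at 505 and 527. Macrophages of untreated MC38 tumors held 404, 374, 384 and 320 (370 ± 36.1), and those of Panc02-SIY held 128, 49.6, 70.5 and 62.5 (77.7 ± 34.8). The monocytes lay above the macrophages in all 8 untreated libraries. Paired within libraries, with log2(CPM + 10), the difference was 1.72 between monocytes and macrophages (8 of 8 libraries, exact sign-flip permutation test, two-sided, p = 0.00781, adjusted p = 0.0234). Macrophages then exceeded natural killer (NK) cells by 1.17 (7 of 7 libraries, adjusted p = 0.0234 by the same exact test). NK cells exceeded CD8 T cells by 1.10 (6 of 6 libraries, adjusted p = 0.0313, exact test).

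More classes could be placed in Panc02-SIY tumors, where the lymphocytes were many. From high to low, the mean log2 level without radiation ran through monocytes, neutrophils, CD4 T cells, macrophages, NK cells, gamma delta T cells, cDC1 and CD8 T cells, among classes that reached 10 barcodes in all 4 libraries. Monocytes exceeded neutrophils by 1.04 on the log2 scale in 4 of 4 libraries, neutrophils exceeded CD4 T cells by 1.14 in 4 of 4, and macrophages exceeded NK cells by 0.88 in 4 of 4. With 4 libraries the smallest p of this exact test is 0.13, which each of these had. The other neighbours, CD4 T cells and macrophages, NK and gamma delta T cells, gamma delta T cells and cDC1, and cDC1 and CD8 T cells, did not differ beyond their spread (exact p between 0.25 and 1). CD8 T cells, the largest class of this tumor with 3378 kept barcodes, held 11.1, 12.3, 10.7 and 19.6 CPM (13.4 ± 4.16), the lowest of the classes with 4 libraries, and B cells, with 3, had a mean of 10.3. After 12 Gy the order in Panc02-SIY was monocytes, macrophages, neutrophils, CD4 T cells, cDC1, regulatory T cells, gamma delta T cells, CD8 T cells, NK cells and B cells. The only neighbours there that differed in the same direction in 4 of 4 libraries were NK cells over B cells, by 3.03 (exact p = 0.13). In the Panc02-SIY orders, pseudocounts of 1 or 50 and the use of all barcodes moved no class by more than 1 rank. In untreated MC38 with all barcodes, monocytes exceeded macrophages by 0.82 (4 of 4 libraries, exact p = 0.13).

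**Figure D1:**
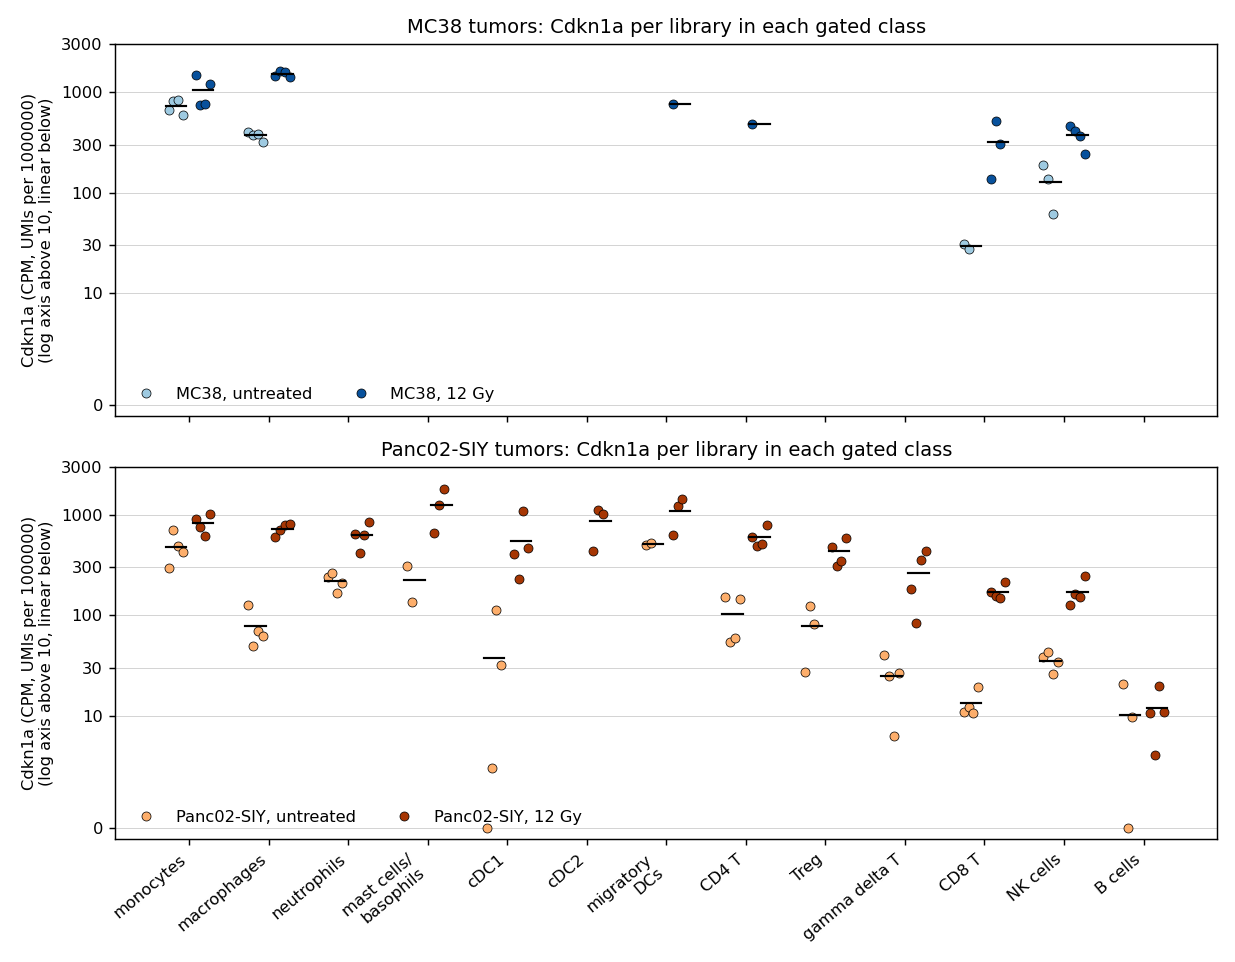
Cdkn1a in CPM per library (y axis, logarithmic above 10 and linear below) in 13 gated classes of MC38 tumors (top) and Panc02-SIY tumors (bottom), 1 point per library with at least 10 barcodes of the class, bars at group means, light points untreated and dark points 12 Gy. Irradiated macrophages lie between 1396 and 1624 in MC38 and between 607 and 815 in Panc02-SIY, clear of the untreated ones, while monocytes overlap in both tumors and B cells stay at or below 20.8.

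Macrophages showed the firmest change with radiation. In irradiated MC38 tumors their level was 1436, 1624, 1584 and 1396 CPM (1510 ± 111), and every irradiated library lay above every untreated one, where 20.2% of genes had no overlap in either direction. Summed counts per library were tested with edgeR's quasi-likelihood test over all genes of a class, and a gene was called where its fold exceeded 1.3 and its p, adjusted after Benjamini and Hochberg, lay below 0.1. Cdkn1a rose by 2.15 ± 0.18 (SE) on the log2 scale (adjusted p = 6.08e-07) and stood at rank 7 of 10469 genes by p, in a comparison where 6.29% of genes were called higher. With all barcodes in every library they held 543, 564, 494 and 395 untreated and 1071, 1352, 1396 and 1288 irradiated, and the change was 1.46 ± 0.19 (adjusted p = 4.59e-04, 2.29% called higher). In Panc02-SIY the irradiated macrophages held 607, 705, 793 and 815 (730 ± 94.6), a 9.39-fold higher mean than without radiation, and the ranges were far apart, where 7.34% of genes had no overlap. There Cdkn1a had the smallest p of all 10469 genes, with a change of 3.37 ± 0.20 (adjusted p = 1.47e-08), where 2.74% of genes were called higher.

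Monocytes behaved otherwise. In MC38 they held 1488, 746, 758 and 1204 CPM after radiation (1049 ± 362), and 2 of these libraries lay within the untreated range. In Panc02-SIY they held 914, 749, 613 and 1020 (824 ± 180), where 1 library lay within the untreated range. The changes were 0.52 ± 0.25 (95% interval 0.04 to 1.00, adjusted p = 0.745) and 0.71 ± 0.24 (0.24 to 1.19, adjusted p = 0.382), and neither passed. The edgeR fits called 0% of genes higher or lower, while 382 and 521 of 5768 genes had an unadjusted p below 0.05. In Panc02-SIY the change was called by DESeq2 (0.71, adjusted p = 0.0918), without the filter on low counts (0.78, adjusted p = 0.00624) and with classes taken from clusters (0.83, adjusted p = 0.0457). With all barcodes, the change in MC38 monocytes was 0.20 ± 0.20 (adjusted p = 1.00).

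Neutrophils, short-lived granulocytes marked by S100a8 and Csf3r, were numerous in Panc02-SIY tumors only. They held 239, 266, 167 and 212 CPM untreated (221 ± 42.2) and 642, 416, 627 and 839 irradiated (631 ± 173), with no overlap, which 3.51% of genes had. Cdkn1a was 1 of 2 genes called higher among 5386 (0.0371%) and had the smallest p, with a change of 1.48 ± 0.21 (adjusted p = 0.0147). Mast cells and basophils, gated on Cpa3, Fcer1a and Gata2, held 313 and 136 in the 2 untreated libraries with enough of them and 658, 1258 and 1823 in 3 irradiated ones, as high as any class. Their change of 2.52 ± 0.55 did not pass in 1567 genes (adjusted p = 0.22, 0.0638% called higher), and the untreated mean rests on 2 libraries. It passed with DESeq2 (2.50, adjusted p = 0.00673), with a minimum of 5 barcodes, an alternative chosen after seeing the data (2.45, adjusted p = 0.0343), and without untreated replicate 1 (3.17, adjusted p = 6.53e-08) or 2 (2.13, adjusted p = 0.0375).

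Dendritic cells, the cells the study set out to follow, had high Cdkn1a after radiation but few barcodes. The cDC1, which cross-present antigen to CD8 T cells, held 0, 5.4, 114 and 32.0 CPM in untreated Panc02-SIY libraries and 405, 228, 1082 and 471 in irradiated ones. The groups did not overlap, which held for 6.98% of genes. In the library with no UMI, 78687 UMIs were read, so that a level of up to 38.1 would go unseen. The fitted change was 3.91 ± 0.94, with adjusted p = 0.17 where 1.43% of genes were called higher. It passed under DESeq2 (3.80, adjusted p = 0.0361), at thinned depth (4.07, adjusted p = 0.0652) and without untreated replicate 3 (4.73, adjusted p = 0.0995), the library with 114. It also passed with classes from clusters (3.19, adjusted p = 3.03e-04), but the cluster with cDC1 markers held only 8.85% of the gated cDC1, so that this is another set of cells. Migratory mature dendritic cells (mregDC), which carry Ccr7 and Fscn1, held 505 and 527 untreated and 635, 1224 and 1423 irradiated, a change of 1.09 ± 0.34 that did not pass (adjusted p = 0.401, 0.193% called higher) but did without irradiated replicate 2 (1.37, adjusted p = 0.0684). With a minimum of 5 barcodes, chosen after seeing the data, 4 untreated mregDC libraries held 126 to 527 (354 ± 195). The mregDC change was then 1.56 ± 0.34 and did not pass either (adjusted p = 0.134). The cDC2, which present antigen to CD4 T cells, held 437, 1112 and 1024 in the 3 irradiated libraries that had enough of them. No untreated library had 10 cDC2. Pooled over libraries, cDC2 of untreated Panc02-SIY tumors held 507 CPM (95% exact Poisson interval 424 to 602) and those of irradiated tumors 934 (865 to 1007). In MC38 the pooled cDC2 held 584 (509 to 667) in 18 untreated barcodes and 1685 (1549 to 1829) in 14 irradiated ones, and cDC1 held 183 (118 to 270) in 7 and 774 (653 to 910) in 10. The mregDC of MC38 held 514 (388 to 667) in 13 untreated barcodes and 1228 (1069 to 1404) in 13 irradiated ones. With all barcodes the pooled MC38 values were 668 and 1562 in cDC2, 279 and 706 in cDC1 and 1049.5 and 1261.9 in mregDC. These intervals cover counting error only and say nothing of the spread between libraries. Too few MC38 libraries had 10 kept dendritic barcodes for a fit of the change. With all barcodes, the edgeR change in MC38 was 1.61 ± 0.44 in cDC2 (adjusted p = 0.611). Over the 3 dendritic classes it was 1.05 ± 0.48 (adjusted p = 0.804), and the libraries overlapped (lowest irradiated 556, highest untreated 1016). Neither passed. Summed over the 3 dendritic classes, Panc02-SIY libraries held 305, 61.2, 252 and 91.9 untreated and 976, 441, 1108 and 704 irradiated (2.18 ± 0.50, adjusted p = 0.175, 0.433% called higher), and this passed without untreated replicate 1 (2.58, adjusted p = 0.0661), with all barcodes (2.19, adjusted p = 0.0973, 0.542% called higher) and under DESeq2 (2.15, adjusted p = 7.81e-04).

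CD8 T cells joined a low level without radiation to a large change. In Panc02-SIY they held 170, 156, 150 and 213 CPM after 12 Gy (172 ± 28.2), 12.8-fold the untreated mean, with no overlap, which 12% of genes had. The change was 3.54 ± 0.31 (adjusted p = 6.09e-05, 1.29% of genes called higher). The CD8 T cells of MC38 tumors were few, with 30.9 and 27.5 in 2 untreated libraries and 137, 513 and 305 in 3 irradiated ones. Their change of 3.61 ± 0.75 did not pass (adjusted p = 0.14, 0.156% called higher). It was called without irradiated replicate 1 (3.92, adjusted p = 0.0117), without Panc02-SIY untreated replicate 4 (3.63, adjusted p = 0.0621) and under DESeq2 (3.57, adjusted p = 8.53e-05). By edgeR it was also called with library size alone (3.53, adjusted p = 0.0852), only the groups compared (3.51, adjusted p = 0.0365) and adjustment over all classes (adjusted p = 0.0374). With a minimum of 5 barcodes, chosen after seeing the data, 4 untreated libraries held 27.5 to 215 and overlapped the irradiated ones. The change was then 2.35 ± 0.63 (adjusted p = 0.184). With all barcodes, the untreated and irradiated CD8 T cells of MC38 overlapped and the change was 1.89 ± 0.48 (adjusted p = 0.217).

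The other T cells of Panc02-SIY tumors rose as well. CD4 T cells held 153, 55.0, 59.8 and 146 CPM untreated and 606, 492, 517 and 787 irradiated. Regulatory T cells, marked by Foxp3, held 27.7, 125 and 82.4 in 3 untreated libraries and 480, 310, 347 and 593 in 4 irradiated ones. Gamma delta T cells held 40.1, 25.1, 8.2 and 26.8 against 181, 85.0, 358 and 432. In none of the 3 classes did the groups overlap, which held for 5.96%, 6.83% and 11.5% of genes in the same order. CD4 T cells rose by 2.46 ± 0.33 (adjusted p = 0.011, 0.362% of genes called higher) and regulatory T cells by 2.47 ± 0.37 (adjusted p = 0.00363, 0.109% called higher, the second smallest p of 2751 genes). Gamma delta T cells rose by 3.42 ± 0.56 (adjusted p = 0.00967, 2.55% called higher). In MC38 the pooled CD4 T cells held 266 (95% Poisson interval 172 to 393) untreated and 1027 (860 to 1217) irradiated, and the regulatory T cells 78.8 (36.0 to 150) and 201 (119 to 318), in 13 to 26 barcodes. With all barcodes these were 267 and 970 in CD4 T cells and 106 and 188 in regulatory T cells. The T cells of MC38, summed over all T classes, held 124, 34.0, 127 and 73.9 untreated and 316, 507 and 428 in 3 irradiated libraries, a rise of 2.27 ± 0.34 (adjusted p = 0.00501, 0.413% called higher), and of 1.80 ± 0.27 with all barcodes (adjusted p = 0.00308). The same sum rose by 3.50 ± 0.26 in Panc02-SIY (adjusted p = 6.9e-07, 2.03% called higher).

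NK cells, gated on Ncr1 and Klr receptors, held 38.3, 43.3, 26.3 and 34.3 CPM in untreated Panc02-SIY tumors (35.6 ± 7.20) and 126, 163, 151 and 244 in irradiated ones (171 ± 51.1), with no overlap, which 7.28% of genes had. Cdkn1a had the smallest p of 8259 genes (2.23 ± 0.22, adjusted p = 1.45e-08, 0.182% called higher). When barcodes with 2 or more markers of a second class were left out, the change was 1.3 and did not pass (adjusted p = 0.543). In MC38 the NK cells held 187, 137 and 61.0 in 3 untreated libraries and 460, 413, 365 and 243 in irradiated ones, with no overlap, which 5.21% of genes had. The rise of 1.42 ± 0.32 was called (adjusted p = 0.0646, 0.133% called higher), but it fell short with all barcodes (1.03, adjusted p = 0.128), with the stricter gate (1.40, adjusted p = 0.175), with thinned depth (1.72, adjusted p = 0.619) and on leaving out untreated MC38 replicate 2 or 4, irradiated MC38 replicate 1, 2 or 3 or untreated Panc02-SIY replicate 4 (1.10 to 1.41). B cells were the exception in Panc02-SIY. They held 20.8, 0 and 10.0 in 3 untreated libraries and 10.8, 6.5, 19.9 and 11 in 4 irradiated ones, and the groups overlapped throughout. An untreated library with only 9 B cells, not counted here, held 3 UMIs, or 42.1 CPM. Over all 4 libraries of each group, that one included, these are 6 UMIs of 366573 untreated and 6 of 488741 irradiated, or 16.4 (95% Poisson interval 6.01 to 35.6) and 12.3 (4.51 to 26.7) CPM, too few to enter the fit. The library with none could have held up to 30.3.

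**Figure D2:**
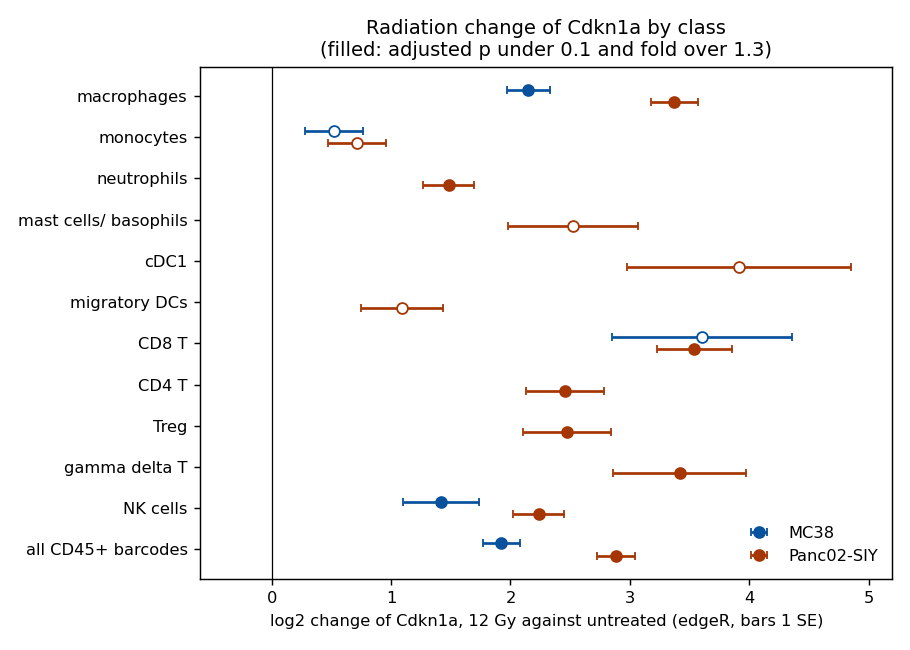
Fitted log2 change of Cdkn1a, 12 Gy against untreated (x axis, with bars of 1 SE), by class (y axis) in MC38 (blue) and Panc02-SIY (brown), filled where called. All points lie above 0, from 0.52 in MC38 monocytes to 3.91 in cDC1 of Panc02-SIY, which also have the largest SE, 0.94.

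Over the classes tested, Cdkn1a was called higher in 2 of 4 in MC38 and in 7 of 11 in Panc02-SIY and lower in none, and in 3 of the Panc02-SIY classes, macrophages, neutrophils and NK cells, it had the smallest p of all genes. The 6 classes that were not called had higher fitted values as well. Summed over all CD45+ barcodes, MC38 libraries held 409, 390, 411 and 322 untreated and 1330, 1461, 1364 and 1270 irradiated, and Panc02-SIY libraries 74.5, 48.0, 63.4 and 47.7 and 457, 343, 435 and 559. The changes were 1.92 ± 0.15 (adjusted p = 2.27e-06, 7.24% called higher) and 2.88 ± 0.16 (adjusted p = 3.45e-08, 7.69% called higher, the smallest p of 12447 genes). In such sums a change in the mix of cells and a change of RNA per cell cannot be told apart. With all barcodes, the MC38 libraries held 552, 574, 519 and 407 against 1038, 1248, 1251 and 1192, and the change was 1.3 (adjusted p = 4.19e-04, 2.74% called higher).

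Whether a class changed more or less than macrophages was tested on the difference within each library. In Panc02-SIY the change was smaller than that of macrophages in monocytes, by 2.33 on the log2 scale, in neutrophils, by 1.69, in B cells, by 2.75, and in NK cells, by 1.18 (exact permutation test, two-sided, p = 0.0286 for each, the smallest that these libraries allow, adjusted p = 0.0929 over 13 comparisons). CD8 T cells differed from macrophages by -0.18 (exact p = 0.657), CD4 T cells by -0.61 (exact p = 0.114), regulatory T cells by -0.61 (exact p = 0.571), gamma delta T cells by -0.32 (exact p = 0.6) and cDC1 by 0.86 (exact p = 0.429). These differences were within the spread between libraries. In 2 classes with 3 irradiated and 2 untreated libraries, the smallest possible exact p is 0.1. There mregDC differed by -1.97 (exact p = 0.1) and mast cells by -0.69 (exact p = 0.2). The 3 dendritic classes together differed by -0.84 (exact p = 0.143). The pseudocount decided some calls: with 1 CPM the CD8 T cell value was 0.31 (exact p = 0.543) and the B cell value, -2.14, was no longer called (exact p = 0.143), and with 50 CPM the CD8 T cells changed less than macrophages by 0.84 (-0.84, exact p = 0.0286). In MC38, monocytes changed less than macrophages by 1.53 (exact p = 0.0286, adjusted p = 0.114), while NK cells differed by -0.48 (exact p = 0.257) and CD8 T cells by 0.83 (exact p = 0.4, smallest possible 0.1). Using all barcodes, the MC38 values were -1.19 for monocytes (exact p = 0.0286), -0.34 for NK cells (exact p = 0.171) and 0.23 for CD8 T cells (exact p = 0.6). Monocytes lay above macrophages in all untreated libraries, and after radiation the classes lay close. In irradiated Panc02-SIY tumors the monocytes exceeded macrophages by 0.16 (3 of 4 libraries), and in irradiated MC38 tumors macrophages exceeded monocytes by 0.58 (3 of 4 libraries).

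The share of barcodes with a Cdkn1a UMI was compared after each barcode was thinned to 1000 UMIs, which leaves out shallower ones. In MC38 macrophages it went from 32.0% ± 3.43 (SD, n = 4 libraries) to 68.3% ± 5.24, and in Panc02-SIY macrophages from 5.29% ± 3.02 to 38.6% ± 4.22 (exact permutation test, p = 0.0286 each, adjusted p = 0.0429). Without thinning the shares were 74.1% and 84.5% in MC38, where macrophages had median depths of 19499 and 18008.5 UMIs, and 11.3% and 52.1% in Panc02-SIY, with 2044 and 2934. The size of the MC38 change depended on the shared barcodes: with all barcodes the share of macrophages went from 43.2% ± 2.12 to 50.2% ± 2.12 (exact p = 0.0286). Among MC38 macrophages kept in 1 library, the UMIs per positive barcode went from 1.41 to 2.28 and the share with 3 or more from 2.19% to 22.7%. CD8 T cells of Panc02-SIY went from 0.857% ± 0.490 to 12.3% ± 1.91, and CD4 T cells from 5.90% ± 4.04 to 34.4% ± 4.87 (exact p = 0.0286, adjusted p = 0.0429). Their UMIs per positive barcode went from 1.04 to 1.28 in CD8 T cells and from 1.56 to 1.78 in CD4 T cells. Neutrophils went from 12.3% to 26.8%, regulatory T cells from 3.06% to 22.3% and NK cells from 4.37% to 13.4% in Panc02-SIY and from 10.2% to 32.4% in MC38, each with exact p = 0.0286. The MC38 NK difference did not pass without thinning (38.8% and 52.6%, exact p = 0.143) or at 2000 UMIs (28.6% and 51.2%, exact p = 0.3). In monocytes the share was 48.9% ± 10.3 and 49.7% ± 12.0 in MC38 (exact p = 0.971, n = 3 and 4) and 32.0% ± 7.81 and 44.3% ± 6.57 in Panc02-SIY (exact p = 0.114). Without thinning, monocytes of Panc02-SIY went from 70.4% to 86.4% (exact p = 0.0286), and those of MC38 stood at 88.3% and 81.6%, with median depths of 13934 and 4953 UMIs. Counting all barcodes, the thinned shares in MC38 were 57.5% and 52.4% in monocytes (exact p = 0.0571) and 18.8% and 32.2% in NK cells (exact p = 0.0857).

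**Figure D3:**
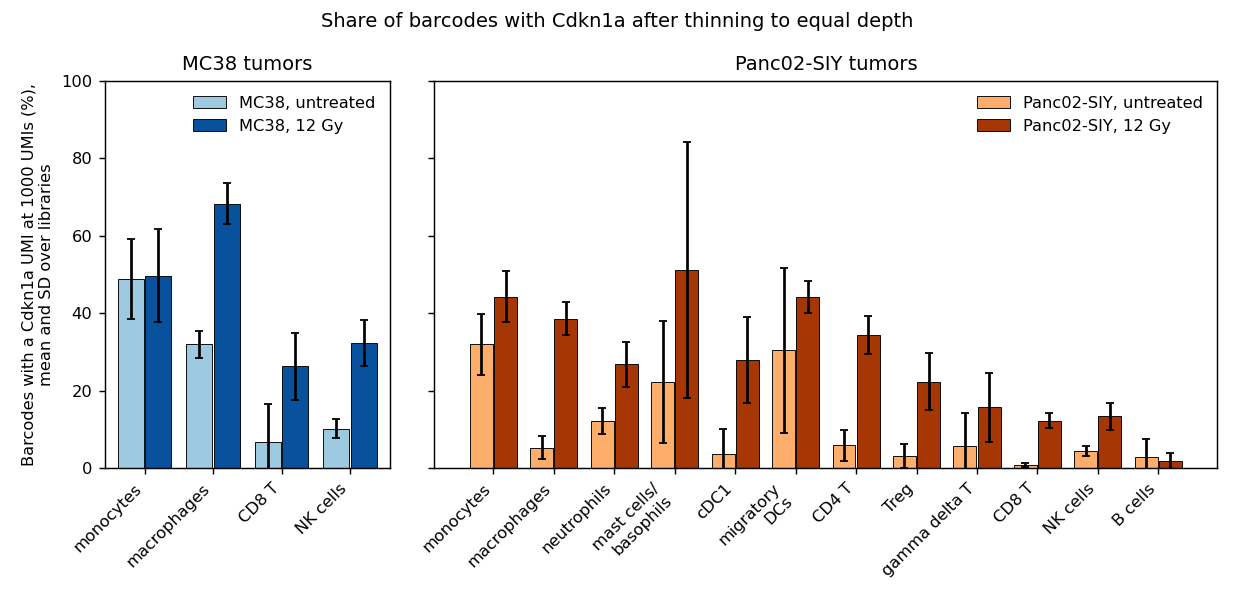
Share of barcodes with at least 1 Cdkn1a UMI after thinning to 1000 UMIs (y axis, percent), untreated (light) and 12 Gy (dark), as mean and SD over libraries, for classes of MC38 (left) and Panc02-SIY (right). The MC38 macrophage bars stand at 32.0% and 68.3%, both MC38 monocyte bars near 49%, and the B cell bars at 2.78% and 1.79%.

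B cells serve as the class with the least pooled Cdkn1a in irradiated Panc02-SIY tumors. After thinning, 2.78% and 1.79% of them had a UMI without and with radiation (exact p = 0.886), at median depths of 3858.5 and 3293 UMIs. The untreated share of CD8 T cells, 0.857%, lay below that of B cells, which rests on 6 UMIs in 62 barcodes, so no expression is read from it alone. The untreated shares of regulatory T cells, 3.06%, and cDC1, 3.72%, lay close to it. As a gauge of free RNA from myeloid cells, the lysozyme gene Lyz2 was read beside Cdkn1a. In irradiated Panc02-SIY tumors, B cells held 2.22% of the macrophages' Lyz2 and 1.56% of their Cdkn1a. CD8 T cells held 3.68% of the Lyz2 and 23.1% of the Cdkn1a, NK cells 5.69% and 22.5%, CD4 T cells 2.89% and 74.2%, and mast cells 1.32% and 186%. In these classes the Cdkn1a percentage lay above that of Lyz2, and in B cells below it. Monocytes held 1028% of the macrophages' Lyz2 and 108% of their Cdkn1a, and without radiation 2771% and 775%. Macrophages were thus not the class richest in Lyz2, which limits the gauge. The part of free RNA in the Cdkn1a of any class was not tested. Without radiation, B cells stood at 24.1% of the macrophages' Lyz2 and 26.1% of their Cdkn1a, and CD8 T cells at 5.72% and 25.3%.

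Without radiation, Cdkn1a was higher in MC38 than in Panc02-SIY tumors in 3 of 4 classes that could be tested, with no overlap between libraries in macrophages and NK cells, which held for 37.3% and 19.2% of genes. The difference was 2.53 ± 0.20 in macrophages (adjusted p = 1.84e-08, 21.5% of genes called higher), 0.72 ± 0.25 in monocytes (adjusted p = 0.0474, 13.9% called higher) and 1.91 ± 0.35 in NK cells (adjusted p = 9.85e-04, 2.72% called higher). In CD8 T cells it was 0.85 ± 1.02 (adjusted p = 0.757, 1.2% called higher), and with all barcodes 2.55 (adjusted p = 0.0141, 5.32% called higher). The monocyte call was lost without any of 5 single libraries, with values from 0.54 to 0.71, and with library size alone (0.60, adjusted p = 0.107), and the NK call without untreated MC38 replicate 1 (1.24, adjusted p = 0.245) and at thinned depth (1.5, adjusted p = 0.41). After radiation the difference was 1.3 ± 0.18 in macrophages (adjusted p = 1.18e-05, 23.3% called higher) and 1.09 ± 0.23 in NK cells (adjusted p = 0.00171, 5.78% called higher), the latter not called at thinned depth (1.13, adjusted p = 0.109). With all barcodes the macrophage differences were 2.95 without and 1.06 with radiation, and those of NK cells 2.28 and 1.07, all called. With the kept barcodes, the difference after radiation was 0.53 ± 0.24 in monocytes (adjusted p = 0.108, 17.7% called higher) and 0.92 ± 0.35 in CD8 T cells (adjusted p = 0.154, 3.64% called higher), which did not pass. The monocyte difference passed with all barcodes (0.49, adjusted p = 0.0472), DESeq2 (0.56, adjusted p = 0.0922), no filter on low counts (0.46, adjusted p = 0.0576), only the groups compared (0.52, adjusted p = 0.0848) and without any of 5 single libraries (0.49 to 0.66). The CD8 T cell difference passed with all barcodes (0.91, adjusted p = 0.0939), the cell filter (1.27, adjusted p = 0.0454), RLE scaling (1.07, adjusted p = 0.0975), library size alone (0.95, adjusted p = 0.0966), adjustment over all classes (0.92, adjusted p = 0.0805) and when either irradiated MC38 replicate 1 (1.25) or the fourth untreated Panc02-SIY library (0.96) was left out. With so many genes called between the tumors, a call there sets Cdkn1a little apart. The macrophage gate also held unlike cells in the 2 tumors. Without radiation C1qa was at 4225 CPM in MC38 and 3858 in Panc02-SIY, but Apoe was at 12521 and 1429, Trem2 at 472 and 16.7 and Lyz2 at 7026 and 408, the 10 markers summed to 26679 and 13193 with none at 0, and the median depths were 19499 and 2044 UMIs. The part of these differences in the Cdkn1a difference was not tested. At thinned depth the macrophage differences were still called, but thinning summed counts leaves the expected CPM unchanged and cannot test the depth of barcodes.

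The change with radiation was smaller in MC38 than in Panc02-SIY in macrophages, by 1.23 ± 0.26 on the log2 scale. Unadjusted p was 1.43e-04, the second smallest of 10469 genes, but the adjusted p was 0.448 and edgeR called 0% of genes either way, with 598 genes at an unadjusted p below 0.05. With all barcodes the difference was -1.89 ± 0.28 (adjusted p = 0.0219, 0.0275% called lower) and was called, as it was under DESeq2 (-1.23, adjusted p = 0.00733), with classes from clusters (-1.65, adjusted p = 0.053) and without untreated Panc02-SIY replicate 1 (-1.49, adjusted p = 1.99e-04), the library with the highest untreated macrophage level of that tumor, 128. With all barcodes, those shared between untreated and irradiated MC38 libraries count in both groups. The MC38 macrophage means were then 499 CPM untreated, against 370 with kept barcodes, and 1276 irradiated, against 1510. The MC38 groups thus lay closer in this setting, and libraries that share barcodes are not independent. Its call is therefore no separate support. Summed over all CD45+ barcodes it was -0.96 ± 0.21 and passed the threshold narrowly (adjusted p = 0.0951, 0.193% of genes called lower), and it fell short without any of 11 single libraries (-1.06 to -0.91), with the cell filter (-0.89, adjusted p = 0.11), with thinned depth (-0.92, adjusted p = 0.124) and, just, with RLE scaling (-0.99, adjusted p = 0.1001). Monocytes (-0.19 ± 0.34), NK cells (-0.82 ± 0.40) and CD8 T cells (0.07 ± 1.02) gave adjusted p from 0.787 to 1, with unadjusted p below 0.05 only in NK cells (0.0475). In these fits edgeR called 0% of genes higher in monocytes and NK cells and 0.0183% in CD8 T cells. The sign in CD8 T cells turned with all barcodes (-1.64).

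Because p21 halts division, dividing barcodes were read apart from the rest, gated on 3 or more of 10 mitosis genes such as Mki67 and Top2a. The gate was read without thinning, so deeper barcodes can meet it more readily. The part of depth in the differences between cycling and other barcodes was not tested. In macrophages, Cdkn1a was lower in cycling than in other barcodes of the same library by 0.41 on the log2 scale (11 of 14 libraries, exact sign-flip permutation test, two-sided, p = 0.00745). The direction was the same in all 8 MC38 libraries. Cycling MC38 macrophages held 305, 268, 286 and 292 CPM untreated against 574, 505, 516 and 355 in the others, and 940, 1502, 1273 and 1149 irradiated against 1881, 1730, 1771 and 1597. For each group of 4 the exact p was 0.13, the smallest possible. With all barcodes, cycling MC38 macrophages were lower by 0.70 (7 of 8 libraries, exact p = 0.0156). In Panc02-SIY macrophages the means were 52.1 and 66.9 untreated (lower in 2 of 3 libraries) and 794 and 760 irradiated (lower in 1 of 3). CD8 T cells of Panc02-SIY lay the other way, with cycling barcodes higher by 0.57 (5 of 7 libraries, exact p = 0.0625). Their cycling barcodes held 183, 246 and 315 in the 3 irradiated libraries with enough of them, against 152, 127 and 175 in the others.

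In dividing cells Cdkn1a rose with radiation too. In cycling macrophages of MC38 the change was 2.02 and in the others 1.84 (exact permutation p = 0.0286 each), and the difference of 0.19 between them was within the spread (exact p = 0.457). Over all barcodes these changes were 1.86 and 0.98 (exact p = 0.0286 each). In Panc02-SIY macrophages it was 3.72 and 3.35 (exact p = 0.1 each, the smallest that 3 libraries against 3 allow), and in CD8 T cells 3.11 and 2.95 (exact p = 0.0286 each, difference 0.16, exact p = 0.771). The share of cycling barcodes fell from 38.2% ± 2.88 to 28.0% ± 1.52 in MC38 macrophages (exact p = 0.0286), and with all barcodes it was 14.5% and 10.6% (exact p = 0.143). It was 17.1% ± 8.40 and 13.3% ± 6.51 in Panc02-SIY macrophages (exact p = 0.457) and 18.2% ± 6.86 and 8.14% ± 4.20 in CD8 T cells (exact p = 0.0571). The cycling gate was read without thinning, so these shares also depend on depth. Median depths without and with radiation were 19499 and 18008.5 UMIs in MC38 macrophages. In Panc02-SIY they were 2044 and 2934 in macrophages and 8470 and 6413 in CD8 T cells.

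**Figure D4:**
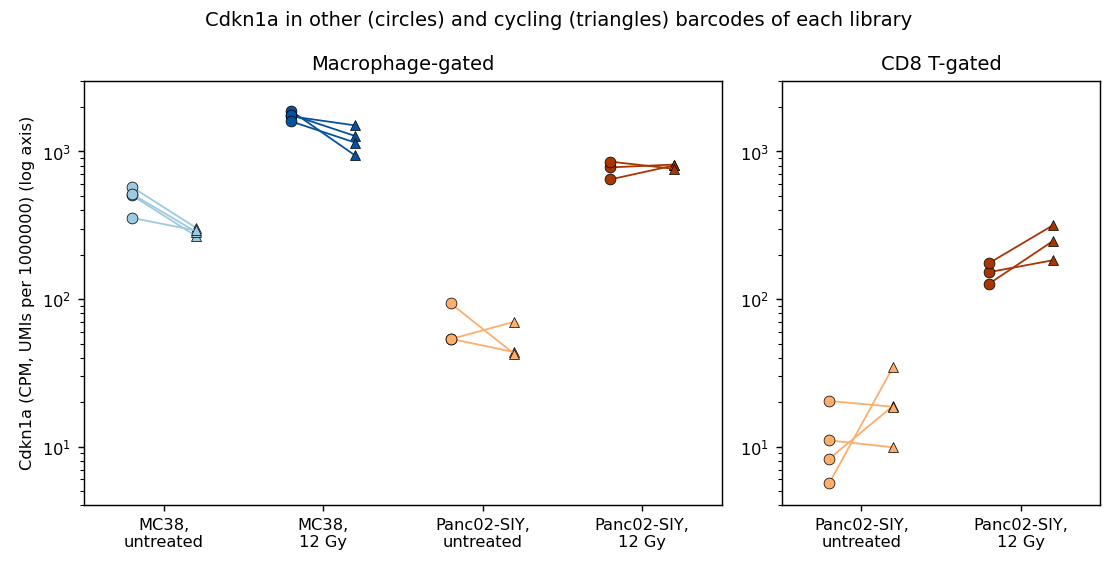
Cdkn1a in CPM (y axis, logarithmic) in other (circles) and cycling (triangles) barcodes of the same library, joined by a line, for macrophages in 4 groups (left) and CD8 T cells of Panc02-SIY (right). The lines fall in all 8 MC38 macrophage libraries, and rise in the 3 irradiated CD8 T cell libraries.

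The other genes of the pathway were read from lists of p53 feedback and stress genes (13), p53 death genes (10), p53 repair and metabolism genes (12), further CDK inhibitors (7), p21's partners among cyclins, kinases and PCNA (12), regulators upstream of p21 (12) and division genes (15). In MC38 macrophages, where Cdkn1a rose by 2.15, 11 of 13 tested feedback genes were called higher with a median change of 1.82, against a median of 0.0285 over all genes and 6.29% called higher. There 8 of 8 tested death genes (median 1.19) and 7 of 10 repair genes (median 1.15) were called higher. The division genes fell, with 9 of 15 called lower and a median of -1.45, where 4.99% of genes were called lower, and 6 of 12 partners of p21 fell and 1 rose. With all barcodes, 10 of 13 feedback genes (median 1.31), 6 of 8 death genes (median 0.84) and 5 of 11 repair genes (median 0.63) were called higher and 6 of 15 division genes lower (median -0.89). In that fit 250 of 10906 genes (2.29%) were called higher and 170 lower. With the kept barcodes, of the 4 other CDK inhibitors tested none rose and 2 fell. In Panc02-SIY macrophages, where the change of Cdkn1a was 3.37, 7 of 13 feedback genes (median 0.75), 4 of 8 death genes (median 0.83) and 6 of 10 repair genes (median 1.04) were called higher, against a median of 0.0143 and 2.74% over all genes, and 2 of 15 division genes were called lower (median -0.53), as were 2.29% of all genes.

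CD8 T cells of Panc02-SIY showed the same lists called, with 8 of 12 feedback genes (median 1.15), 8 of 9 death genes (median 1.31) and 4 of 10 repair genes (median 0.48) higher, against a median of 0.022 and 1.29% over all genes. In NK cells of Panc02-SIY, 2 of 12 feedback genes and 2 of 6 death genes were called higher (medians 0.41 and 0.83, 0.182% of all genes). In those of MC38 it was 3 of 12 and 1 of 6 (medians 1.24 and 0.63, 0.133% of all genes). With all barcodes the MC38 counts were 2 of 11 and 1 of 6, where 12 of 6638 genes were called higher. In monocytes and neutrophils edgeR called 0 genes of the 7 lists in either direction, of 30 tested in each fit. At an unadjusted p below 0.05, 7 list genes were higher in MC38 monocytes, 2 were higher and 1 lower in those of Panc02-SIY, and 5 were higher in neutrophils. The feedback list's median was 0.69 in MC38 monocytes and 0.15 in those of Panc02-SIY, each over 7 tested genes, and 0.33 over 8 in neutrophils, where Cdkn1a itself was called.

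Among the other T cells of Panc02-SIY tumors, CD4 T cells had 4 of 10 feedback genes (median 1.21), 2 of 7 death genes and 1 of 5 repair genes called higher, where 0.362% of all genes were. Of their 15 division genes edgeR called 0 lower, although 9 had an unadjusted p below 0.05 and a value below 0 and the list's median was -1.85. Gamma delta T cells had 4 of 4 tested feedback genes called higher (median 1.37, 2.55% of all genes), regulatory T cells 1 of 6 (median 0.52, 0.109%) and cDC1 1 of 6 (median 1.01, 1.43%). Few list genes passed the count filter in these classes, so their counts cover the abundant members alone. A gene can pass that filter through the irradiated libraries alone, so the tested members may favor those that rose.

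Besides Cdkn1a, 9 list genes were called with radiation in at least 3 classes of 1 tumor, each time higher, and the counts below are over both tumors. Ccng1, cyclin G1, which acts on p53 through Mdm2, was called in 9 of 15 fits, and Bax, which opens the mitochondrial membrane in apoptosis, in 9 of 16. Bax overlaps another counted gene of the same strand, Gm45808, so its counts are less sure. Phlda3, a p53-induced inhibitor of Akt signaling, was called in 6 of 9, and Trp53inp1, a p53 stress cofactor, in 6 of 15. Mdm4, the partner of Mdm2 in holding p53 down, was called in 5 of 16. Zmat3 (4 of 7), Mdm2, the ubiquitin ligase of p53 (4 of 15), Apaf1, the scaffold of the apoptosome (4 of 13), and Dcxr (4 of 11) made up the rest. A gene can pass the count filter through irradiated libraries alone, so the fits that test it may favor those where it rose. In MC38 macrophages, where Cdkn1a rose by 2.15, Phlda3 rose by 4.11 ± 0.36, Trp53inp1 by 2.93 ± 0.25, Zmat3 by 2.54 ± 0.21, Ccng1 by 2.46 ± 0.15 and Mdm2 by 1.83 ± 0.18, with adjusted p of at most 7.88e-06 for each. With all barcodes these rose by 2.44, 2.05, 1.91, 1.69 and 1.31 in the same order, and Cdkn1a by 1.46. In Panc02-SIY macrophages Cdkn1a, at 3.37, lay above each of these 5, which rose by 1.57, 2.25, 1.48, 1.79 and 0.75 in the same order, with adjusted p of at most 0.0394. In CD8 T cells of Panc02-SIY, Cdkn1a at 3.54 lay between Phlda3 at 5.07 ± 0.26 (adjusted p = 8.36e-11) and Ccng1 at 2.29 ± 0.14 (adjusted p = 7.11e-10). CD4 T cells had the same order, with 3.36 for Phlda3, 2.46 for Cdkn1a and 1.62 for Ccng1. In neutrophils, where Cdkn1a was called at 1.48, the 6 named genes tested had values from 0.46 to 1.06 and adjusted p from 0.509 to 0.809. In monocytes of MC38, Ccng1 had a value of 1.46 (adjusted p = 0.437) and Trp53inp1 of 1.82 (adjusted p = 0.598), and in those of Panc02-SIY they had 0.22 and -0.26 (adjusted p = 0.906 and 0.921).

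Between the tumors, Cdkn1a and some of these genes lay on opposite sides. Summed over all CD45+ barcodes, the change with radiation was smaller in MC38 for Cdkn1a, by 0.96, and larger in MC38 for Mdm2, by 0.94 ± 0.19 (adjusted p = 0.0776), and for Zmat3, by 1.12 ± 0.25 (adjusted p = 0.0951). Both are among 19 genes called larger of 12447, 0.153%. Phlda3, Trp53inp1 and Ccng1 had values of 1.75, 1.45 and 0.60 that did not pass (adjusted p = 0.207, 0.12 and 0.124). In macrophages alone the values were -1.23 for Cdkn1a, 1.08 for Mdm2, 1.06 for Zmat3 and 2.54 for Phlda3, none of them called. Counting all barcodes, the values over CD45+ barcodes were -1.56 for Cdkn1a (adjusted p = 0.00968, 1.11% called lower), 0.48 for Mdm2 (adjusted p = 0.139), 0.55 for Zmat3 (adjusted p = 0.29) and -0.13 for Ccng1 (adjusted p = 0.777), so that of the 3 calls that of Cdkn1a alone was kept.

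**Figure D5:**
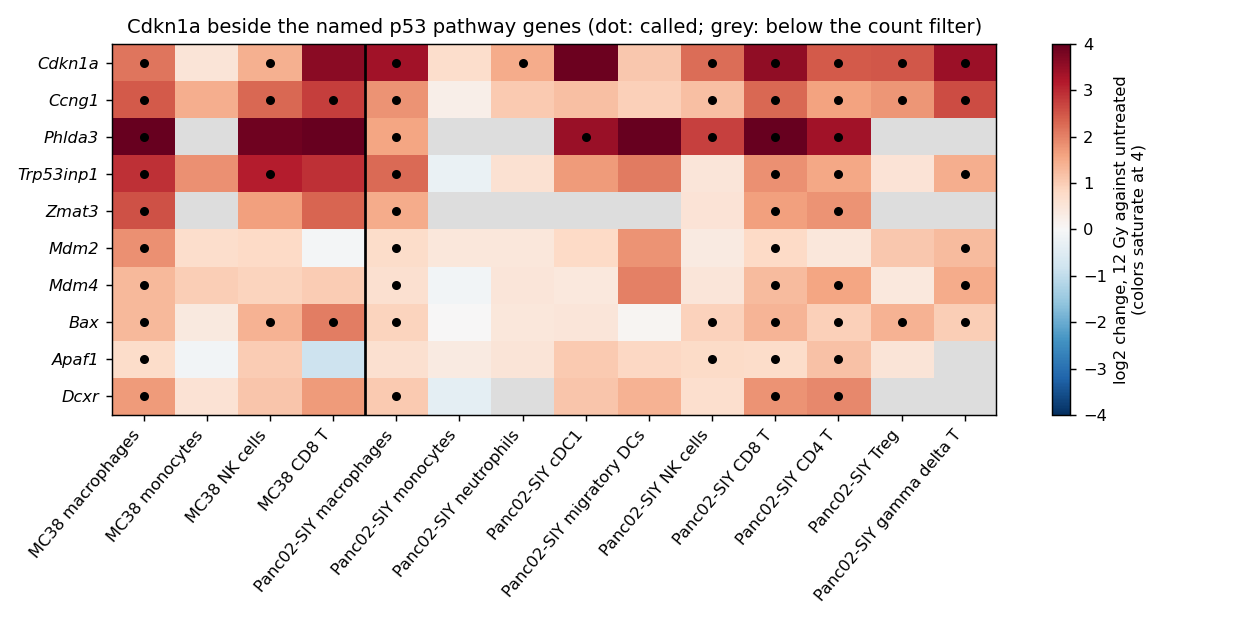
Fitted log2 change with 12 Gy (color, red higher and blue lower, saturating at 4) of Cdkn1a and the 9 named p53 pathway genes (rows) in 14 class fits (columns, MC38 left of the black line), with a dot where called and grey where too few counts. The Cdkn1a row is red throughout and has the most dots in Panc02-SIY, 7 of its 10 columns there, and the monocyte columns have none. The columns leave out a tested Panc02-SIY class without a call, and over all classes tested there Cdkn1a was called in 7 of 11.

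Genes whose pattern was most like that of Cdkn1a were sought among 6154 others with a mean of at least 20 CPM, over 121 points of 1 class in 1 library each, on the log2(CPM + 10) scale. The points share libraries and differ in depth, so the correlations are descriptions. By level, Ifrd1 (r = 0.70), H2-T23 (0.64), Osm, a cytokine of myeloid cells (0.64), Isg15, an interferon-induced gene (0.64), and Sh3glb1 (0.64) came first. Once each class and tumor was centred on its untreated mean, over 116 points, the nearest were Phlda3 (r = 0.77), Exoc4 (0.75), Csrnp1 (0.71), Gm42047 (0.70) and Ccng1 (0.69). Of these 10 genes, 8 have a window before their start site, and only that of Ccng1 holds the p53 element with at most 1 mismatch. Csrnp1 overlaps the counted gene Cx3cr1 and Gm42047 overlaps Gm20388, each on the same strand, so that reads may have been split between them.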

How the data were processed

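The study sorted live CD45+ cells from untreated and irradiated MC38 and Panc02-SIY tumors, 4 libraries a group, and made droplet libraries with 10x 3' v3.0 chemistry. The authors deposited 1 matrix of UMI counts per library, raw counts of 31053 features in barcodes that had been called as cells, from reads aligned to mm10. The submitters' processing notes name Cell Ranger 3.1.0 and bcl2fastq 2.20.0. No cell annotation was used, and no column of the matrices was left unmapped.

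From these counts, barcodes shared by libraries of a tumor line were kept where they had most UMIs. A barcode was gated to the class of 10 markers with most markers detected, at least 2 and at least 1 more than any other class, and 7.18% had too few and 3.71% were tied. No doublet caller was run. Instead, leaving out barcodes with 2 or more markers of a second class was an alternative. Whether the shared barcodes are the same cells was not tested.

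Counts were summed per class and library with at least 10 barcodes and fitted with edgeR 4.0.16 in R 4.3.3 (TMM scaling, filterByExpr, robust quasi-likelihood test), all 4 groups in 1 fit per class. The study's thresholds, a fold above 1.3 and a p below 0.1 after Benjamini-Hochberg adjustment, decided calls. Values within libraries used log2(CPM + 10), with CPM the UMIs per 1000000 of a class in a library, and exact two-sided permutation tests in scipy 1.17.1. Clusters for the cluster alternative came from scanpy 1.11.5 (2000 variable genes, 30 components, 20 neighbors, resolution 1). Alternatives were all barcodes, a stricter gate of 3 markers, a cell filter (500 genes, 10% mitochondrial UMIs), thinned depth, other scalings and no filter on low counts. Others were DESeq2 1.42.0, a replicate block, other thresholds and pseudocounts and leaving out each library. For thinned depth, the summed counts of a class were thinned in each library to the lowest mean UMIs per barcode among its counted libraries. Thinning of each barcode to 1000 UMIs served the shares of barcodes alone. A minimum of 5 barcodes, and all barcodes for the MC38 shares, cycling values and differences from macrophages, were chosen after seeing the data.

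Replicate numbers were not used as pairs in the main fits. Correlations of same-numbered untreated and irradiated libraries ran from -0.191 to 0.822 in Panc02-SIY and from -0.0232 to 0.19 in MC38. The best match had the same number for 3 of 4 libraries in Panc02-SIY and 1 of 4 in MC38. Whether the numbers pair the Panc02-SIY libraries is thus not settled. Gene lists and the choice of Cdkn1a were made with earlier results of these data known. Named genes were the list genes called with radiation in at least 3 classes of 1 tumor, and the 5 most correlated with Cdkn1a by level and by change. On simulated data for the irradiated against untreated Panc02-SIY comparison, fold changes of log2 2 were recovered in 99% (macrophages, 10469 genes), 97.9% (CD8 T cells, 10914 genes) and 98% (NK cells, 8259 genes), and those of log2 1 in 76%, 85.4% and 71.1%, with 0.11%, 0.1% and 0.16% of unchanged genes called. Apart from the changed genes, the simulation gave all 4 groups the same mean profile, and each gene had the trended dispersion. It covered macrophages, CD8 T cells and NK cells only and says nothing of recovery in smaller classes. Intervals and floors (3 counts) cover counting error only.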

Additional observations from a re-analysis of the deposited data

Results flagged for a closer look

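Between tumors, the radiation change of Cdkn1a summed over all CD45+ barcodes differed by -0.96 on the log2 scale, smaller in MC38 (edgeR, adjusted p = 0.0951), a call lost with the cell filter, thinned depth or RLE scaling (-0.99 to -0.89, adjusted p from 0.1001 to 0.124) and without any of 11 single libraries. At an unadjusted p below 0.05, the change differed between classes of the same tumor in 5 comparisons with macrophages (exact permutation test, p = 0.0286 each). Each was tested on the differences within libraries, and the comparison in MC38 alone had an adjusted p above 0.1. In MC38 the change of monocytes was smaller than that of macrophages by 1.53 (difference -1.53, adjusted p = 0.114, every irradiated library below every untreated one in this difference). In Panc02-SIY the differences from macrophages were -2.33 in monocytes, -1.69 in neutrophils, -2.75 in B cells and -1.18 in NK cells (adjusted p = 0.0929 each), and that of B cells was not called at a pseudocount of 1 (-2.14, exact p = 0.143).

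Barcodes that met no gate, which the sums over all CD45+ barcodes hold but no class does, also carried more Cdkn1a after radiation. In MC38 they held 424.5, 474.3, 501.7 and 441.6 CPM untreated and 722.8, 1576, 1389 and 1215 irradiated, a 2.66-fold higher mean. In Panc02-SIY they held 218.1, 70.7, 130.3 and 51.0 against 685.9, 610.3, 554.6 and 545, a 5.10-fold higher mean. The groups did not overlap in either tumor, but how many genes did the same there was not counted, and no test was run on them. Of 36 groups of 4 libraries, 0 held a library far from the other 3 by Dixon's criterion.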

How the results depend on the processing

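Of the values of single classes under alternatives other than leaving out a library, 544 kept their side of the threshold, 34 newly passed, 23 no longer passed and 9 reversed. The classes called with radiation in MC38 were 2 of 4, and 1 with all barcodes (of 5 tested), the stricter gate, thinned depth or an adjusted p below 0.05 (of 4 each), the cell filter (of 2) and second-class barcodes left out (of 1). MC38 CD8 T cells, not among these 2, were called under DESeq2 (3.57, adjusted p = 8.53e-05). They were also called by edgeR with adjustment over all classes together (adjusted p = 0.0374). With library size alone or only the groups compared, edgeR called them (adjusted p = 0.0852 and 0.0365) but not MC38 NK cells (adjusted p = 0.141 and 0.189). In Panc02-SIY the classes called were 7 of 11, and from 5 of 6 (second-class barcodes left out) to 9 of 11 (classes from clusters, DESeq2). Leaving out single libraries gave 1 to 2 in MC38 and 7 to 8 in Panc02-SIY. Between untreated tumors 3 of 4 classes were called, 1 of 1 with second-class barcodes left out and 2 to 3 without single libraries. Between irradiated tumors 2 of 4 were called, 4 of 5 with all barcodes, 1 of 1 with second-class barcodes left out, 1 of 4 at thinned depth and 2 to 3 without single libraries. The count of classes whose radiation change differed between tumors was 0 of 4, and 1 with all barcodes (of 4), classes from clusters (of 3) or DESeq2 (of 4) and 0 to 1 without single libraries. Classes differing from macrophages in Panc02-SIY were 4, with 3 at a pseudocount of 1 and 5 at 50.

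Reversed values were the CD8 T cell difference between tumors (-1.64 with all barcodes, -0.094 with library size alone, -1.19 with a minimum of 5 barcodes, chosen after seeing the data, and -0.39 to 0.40 without single libraries), all T cells between irradiated tumors (-0.37 with second-class barcodes left out), all T cells against macrophages (-0.075 in MC38 at a pseudocount of 50, 0.25 in Panc02-SIY at 1), CD8 T cells against macrophages in Panc02-SIY (0.31 at 1), the share of MC38 monocytes (-6.63 points without thinning) and that of B cells (1.00 point at 2000 UMIs). The cause was not tested.

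The paired fit with the replicate block called 2 classes in MC38, 8 in Panc02-SIY (of 9), 3 and 2 between tumors and 0 for the difference of changes, and gave 1.93 and 2.89 over all CD45+ barcodes. With the block, the changes of cDC1 (3.96, adjusted p = 1.94e-05) and of all dendritic cells (2.33, adjusted p = 0.00288) in Panc02-SIY were called. A best match with the own number held for 1 of 4 libraries in MC38 and 3 of 4 in Panc02-SIY. Whether the numbers pair the Panc02-SIY libraries is thus not settled. Small barcode numbers limit MC38, with under 30 kept barcodes of each dendritic, CD4 T and regulatory T class in a group.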
